A study of Rattus norvegicus with 18 samples.

Results

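Fatty acid uptake and oxidation genes carry fat from the capillary to the mitochondrial respiratory chain. A total of 33 such genes were listed by symbol, and 32 of them had an entry among the 30560 entries (23398 with a symbol) of the deposited count and TPM tables. Cd36, a fatty acid translocase of the cell surface, was listed too and is not analysed here. RNA was taken from frozen sections of a shin muscle of the rat, the tibialis anterior, whose fibres are mostly fast. There were 3 libraries of DMD rats of 9 months, which model the human dystrophy caused by loss of dystrophin, and 6 of p16-null DMD rats of 9 months. The wild-type (WT) rats gave 3 libraries at each of 3, 9 and 18 months. How the Dmd and p16 alleles were made, the sex of the rats and any pooling of animals are not stated in the labels. The stated comparisons set the 3 groups of 9 months against each other and WT muscle of 18 months against 3 months. WT libraries of 9 months thus belong to another stated comparison than those of 3 and 18 months. In contrasts between them, age and set of libraries cannot be told apart.

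Muscle takes up fatty acids that adipose tissue releases and albumin carries, and those that lipoprotein lipase splits from lipoproteins on the capillary wall. It also draws on its own lipid droplets, which adipose triglyceride lipase opens. Acyl-CoA synthetases activate the acids, the carnitine shuttle moves long chains across the inner mitochondrial membrane, and a cycle of dehydrogenation, hydration, a further dehydrogenation and thiolysis shortens them. Electrons of the acyl-CoA dehydrogenases pass through the electron transfer flavoprotein to ubiquinone. The nuclear receptor PPAR-alpha and its coactivator PGC-1-alpha switch on many of these genes in muscle, and PDK4 turns off the entry of glucose carbon into the same mitochondria.

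Promoter windows of 5 members are shown because their genes carry the results below. Hadha and Hadhb encode the 2 subunits of the mitochondrial trifunctional protein and lie head to head, so that their windows overlap. Echs1 and Acsl6 fell most in DMD muscle within their steps. Acot13 was lower both in DMD muscle and in old WT muscle. Each window runs from 250 bases before to 50 bases after the start of the gene in RefSeq on build GRCr8, which is not the build of the deposited values, mRatBN7.2. Capitals mark AGGTCA or its complement TGACCT, the core hexamer bound by many nuclear receptors, and the core of NRF1 sites, which is GCGC, a pair of any bases and GCGC again.
Hadhb: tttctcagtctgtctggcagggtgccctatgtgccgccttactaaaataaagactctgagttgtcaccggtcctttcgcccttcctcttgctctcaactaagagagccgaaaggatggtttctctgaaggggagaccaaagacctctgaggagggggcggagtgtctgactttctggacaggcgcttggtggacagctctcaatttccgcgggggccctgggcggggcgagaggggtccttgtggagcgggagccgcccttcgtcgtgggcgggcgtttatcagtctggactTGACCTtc
Hadha: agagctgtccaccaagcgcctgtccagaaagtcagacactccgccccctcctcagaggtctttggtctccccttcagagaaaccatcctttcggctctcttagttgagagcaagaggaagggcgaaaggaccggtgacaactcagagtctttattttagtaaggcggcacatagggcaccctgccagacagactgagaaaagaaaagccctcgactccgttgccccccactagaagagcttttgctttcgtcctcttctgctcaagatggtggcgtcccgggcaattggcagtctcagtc
Echs1: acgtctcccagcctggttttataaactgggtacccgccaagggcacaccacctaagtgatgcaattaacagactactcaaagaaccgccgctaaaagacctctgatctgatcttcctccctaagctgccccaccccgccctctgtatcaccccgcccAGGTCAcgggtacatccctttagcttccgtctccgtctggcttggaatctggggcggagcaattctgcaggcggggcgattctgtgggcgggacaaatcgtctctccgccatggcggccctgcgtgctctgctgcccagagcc
Acot13: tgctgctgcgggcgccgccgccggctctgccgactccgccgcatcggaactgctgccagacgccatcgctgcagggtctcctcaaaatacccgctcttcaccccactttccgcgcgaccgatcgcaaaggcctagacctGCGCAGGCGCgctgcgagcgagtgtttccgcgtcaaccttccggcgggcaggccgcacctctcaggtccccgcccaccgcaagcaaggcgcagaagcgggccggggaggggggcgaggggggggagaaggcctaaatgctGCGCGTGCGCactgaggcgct
Acsl6: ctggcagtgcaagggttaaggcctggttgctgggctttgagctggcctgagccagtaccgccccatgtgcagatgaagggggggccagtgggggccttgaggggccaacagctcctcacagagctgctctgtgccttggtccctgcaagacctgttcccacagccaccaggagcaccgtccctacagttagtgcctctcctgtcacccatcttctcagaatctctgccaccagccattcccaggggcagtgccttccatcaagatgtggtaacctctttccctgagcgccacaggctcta
These windows are chr6:31907451-31907750 on the minus strand, chr6:31907551-31907850 on the plus strand, chr1:204333457-204333756 on the minus strand, chr17:40668154-40668453 on the plus strand and chr10:38951911-38952210 on the plus strand. The starts of Hadha and Hadhb lie 301 bases apart, and the windows share 200 identical bases read on opposite strands. Of the 32 members, 27 had a window in the table. AGGTCA on either strand stood in 7 of the 27 windows (25.9%), those of Slc27a1, Acadvl, Hadhb, Echs1, Eci1, Eci2 and Ucp3, against 16.2% of all 33469 windows. The NRF1 core stood in 4 (14.8%), those of Acot13, Etfb, Etfdh and Ppara, against 5.58% of all. The E-box CANNTG stood in 21 (77.8%) against 72.1% of all. Neither TCAAGGTCA, the site of the estrogen-related receptors, nor AGGTCA repeated after 1 base, an arrangement bound by PPAR dimers, stood in any of the 27, against 0.433% and 0.0538% of all windows, and both of these contain AGGTCA. A match says only that the letters are there.

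Estimated counts summed to between 9.61 M and 21.99 M over the libraries. Levels of a gene are given as CPM, the count relative to a library size scaled by TMM over all 18 libraries, with the SD within a group, and levels of different genes are set side by side only as TPM, which is per length. Changes are on the log2 scale, each with the SE that edgeR's quasi-likelihood test gives, and a gene is called when its Benjamini-Hochberg adjusted p over all tested genes is under 0.05. Nothing in the labels states that each library is a different rat. The p-values therefore cover the variation among these libraries, which may be technical. Dmd, the targeted gene, was listed at 7.35 to 11.15 TPM in DMD muscle and 6.88 to 12.28 TPM in p16-null DMD muscle, against 12.38 to 17.98 TPM in WT muscle of 9 months. Cdkn2a, which encodes p16 and a further protein from overlapping exons, was listed at 31.81 to 45.33 TPM in p16-null DMD muscle, 35.19 to 54.45 TPM in DMD muscle and at most 0.74 TPM in any WT library. A value for the whole gene does not check the p16-null label. Ckm, the muscle creatine kinase, was at 7053 to 8106 TPM in DMD, 3868 to 13858 TPM in p16-null DMD and 10953 to 21453 TPM in WT of any age. The 50 most abundant genes took 29.1 to 33.1% of the counts in DMD, 30.1 to 38.99% in p16-null DMD and 47.0 to 50.7% in WT muscle of 9 months, so the scaling of libraries bears on the directions below.

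In DMD muscle the genes from activation to the electron transfer flavoprotein were lower together, while Lpl, Angptl4, Slc27a1 and Pnpla2 of the uptake step were not. Against WT muscle of 9 months, 28 of the 32 members fell (21.8% of the 14801 genes tested fell), 2 rose (26.4% of all rose) and 2 were not called, where 48.3% of all genes changed in either direction. The median log2 fold change of the members was -1.41, against 0.11 over all genes tested, and ran from -2.65 for Acsl6 to 4.38 for Angptl4. In CPM, all 3 DMD libraries lay below all 3 WT libraries for 27 members (25.7% of all genes) and above them for 3 (30.7%). With libraries scaled by their totals in place of TMM, 21 members fell and 3 rose. That scaling moved the median of all genes to 0.76 and their calls to 7691 higher and 1240 lower, against 3914 higher and 3228 lower with TMM. The median of the members was then -0.77, and relative to that of all genes it was -1.53 under either scaling. Scaling moves all genes nearly alike, so this equality follows from the arithmetic and is no separate check. Under library totals Acsl1, Eci1, Eci2, Ppargc1a, Pdk4 and Ucp3 were no longer called (adjusted p 0.0536 to 0.327), Pnpla2 was called higher, and Decr1 turned to 0.079.

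Muscle of p16-null DMD rats showed a similar split against WT. There 27 members fell (22.7% of all genes fell), 2 rose (27.5% of all rose) and 3 were not called (50.2% of all changed in either direction), with a median of -1.18 against 0.11 over all genes. In CPM, all 6 libraries lay below WT for 26 members (21.5% of all genes) and above for 2 (23.8%). With library totals 19 members fell and 3 rose, and the calls over all genes moved to 8071 higher and 1251 lower, against 4073 higher and 3359 lower with TMM. Fabp3, Acot2, Acadl, Hadha, Eci1, Eci2 and Ucp3 were then not called (adjusted p 0.0662 to 0.781), and Decr1 turned to 0.14. The median of the members was -0.57 with library totals and -0.42 with limma on log2(TPM + 1). Relative to the median of all genes it was -1.29 with TMM and with library totals, which are equal by arithmetic, and -1.06 with limma. This comparison and the one before share the 3 WT libraries. By step, the median log2 fold change was 0.30 for uptake and release, -1.61 for activation, -1.10 for the carnitine shuttle, -1.23 for the acyl-CoA dehydrogenases, -1.29 for the later steps of the cycle, -0.67 for the auxiliary enzymes, -1.22 for the electron transfer flavoprotein and -1.32 for the regulators. In DMD the same steps had medians of 0.56, -1.96, -1.34, -1.54, -1.53, -0.91, -1.42 and -1.49.

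**Figure D1:**
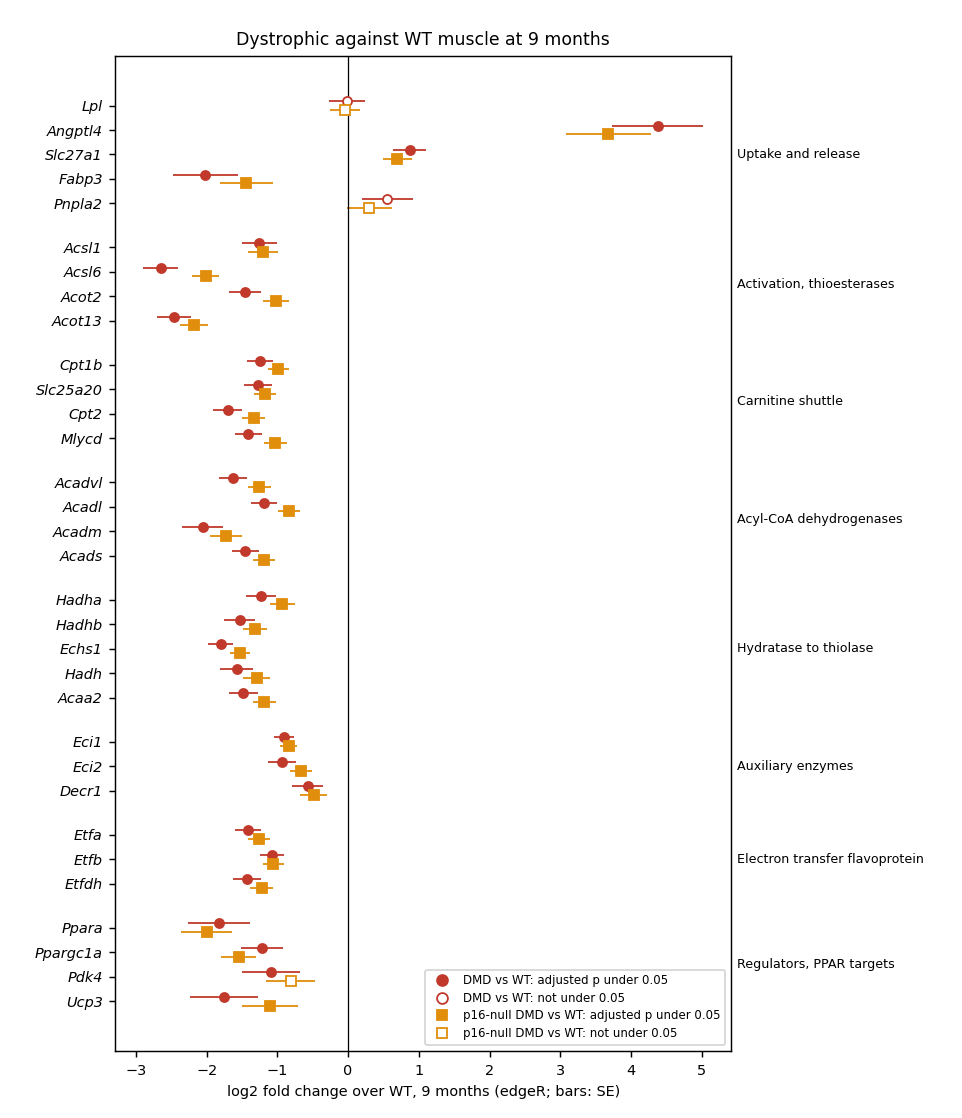
Log2 fold change over WT muscle of 9 months (horizontal axis) of the 32 members, ordered by step from uptake to regulators, for DMD (red circles) and p16-null DMD (orange squares). Bars are SE from edgeR and filled symbols have an adjusted p under 0.05; Angptl4 and Slc27a1 lie to the right of 0, and Acsl6 at -2.65 in DMD lies farthest to the left.

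Uptake and release held the 2 members that rose. Angptl4, a secreted inhibitor of lipoprotein lipase, stood at 32.8, 81.8 and 63.4 CPM in DMD, at 8.80 to 67.2 CPM (median 35.6) in p16-null DMD, and at 2.35, 3.24 and 3.03 CPM in WT of 9 months. No dystrophic library reached down to WT, although the lowest and the highest dystrophic library lay far apart. Its log2 fold change over WT was 4.38 ± 0.64 in DMD (SE; adjusted p = 6.75e-05) and 3.68 ± 0.60 in p16-null DMD (adjusted p = 0.000141). Slc27a1, the fatty acid transport protein FATP1, stood at 51.8, 36.7 and 44.4 CPM in DMD, at 31.1 to 59.3 CPM (median 36.2) in p16-null DMD, and at 27.3, 22.4 and 23.3 CPM in WT. Again the groups did not overlap, with a change of 0.87 ± 0.23 in DMD (adjusted p = 0.00571) and 0.70 ± 0.20 in p16-null DMD (adjusted p = 0.0102).

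Lpl, lipoprotein lipase itself, stood at 378, 269 and 322 CPM in DMD, at 234 to 449 CPM (median 305) in p16-null DMD, and at 309, 396 and 281 CPM in WT, so that the groups overlapped fully. Its change was -0.02 ± 0.25 in DMD (adjusted p = 0.961) and turned to 0.74 in a test on log2(TPM + 1), where it was called. Pnpla2, the adipose triglyceride lipase, was at 204, 214 and 205 CPM in DMD, above the 162, 136 and 127 CPM of WT, yet was not called (0.56 ± 0.36, adjusted p = 0.217). In a fit of DMD and WT alone its adjusted p was 0.0124. Fabp3, which binds fatty acids in the cytosol, was the only one of this step that fell. It stood at 114, 54.9 and 31.98 CPM in DMD, at 47.9 to 137 CPM (median 118) in p16-null DMD and at 245, 379 and 197 CPM in WT. The change was -2.02 ± 0.46 in DMD (adjusted p = 0.0023) and -1.44 ± 0.37 in p16-null DMD (adjusted p = 0.0049).

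Lpl, Angptl4, Slc27a1 and Pnpla2 are also made by fat cells, whose markers rose where Angptl4 and Slc27a1 rose, while Lpl and Pnpla2 were not called. Of 12 fat cell markers, 11 rose in DMD (26.4% of all genes rose) and 11 in p16-null DMD (27.5% of all), and none fell. Their summed level was 3468 to 4520 TPM in DMD and 1046 to 5699 TPM in p16-null DMD, against 593.96 to 737 TPM in WT of 9 months. Adipoq, the fat cell hormone adiponectin, was at 360.6 to 445.9 TPM in DMD and 31.9 to 588 TPM in p16-null DMD, against 13.5 to 32.5 TPM in WT. Plin1, which coats the fat droplet of fat cells, was at 96.1 to 126.9 TPM in DMD and 8.35 to 155.6 TPM in p16-null DMD, against 2.38 to 4.52 TPM in WT. All 12 macrophage markers and all 10 fibroblast markers rose too in both groups. None of these markers was at 0 in all libraries of DMD, p16-null DMD or WT of 9 months. Their part in the values of Angptl4 and Slc27a1 was not tested. In bulk muscle, fewer cells of a type and less RNA per cell cannot be told apart.

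Activation held the largest falls. Acsl6, an acyl-CoA synthetase best known for polyunsaturated acids in brain, stood at 25.9, 18.8 and 21.3 CPM in DMD, at 23.6 to 51.1 CPM (median 33.1) in p16-null DMD, and at 132, 154 and 129.9 CPM in WT. Its highest dystrophic library was far below the lowest WT library. The log2 fold change was -2.65 ± 0.25 in DMD (adjusted p = 2.61e-06) and -2.01 ± 0.19 in p16-null DMD (adjusted p = 1.85e-06). Acsl1, the main long-chain synthetase of muscle, stood at 192, 132 and 139 CPM in DMD, at 111 to 214 CPM (median 158) in p16-null DMD, and at 354, 436 and 323 CPM in WT. Its change was -1.26 ± 0.25 in DMD (adjusted p = 0.000821) and -1.20 ± 0.21 in p16-null DMD (adjusted p = 0.00022). In TPM, Acsl1 overlapped WT in p16-null DMD (56.41 to 114.13 against 101.41 to 121.27).

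Acyl-CoA thioesterases release the acid from coenzyme A again. Acot13, a thioesterase of the mitochondrion, averaged 12.4 ± 3.87 CPM in DMD, 15.1 ± 3.25 CPM in p16-null DMD and 68.9 ± 9.53 CPM in WT (SD, n = 3, 6 and 3). Its change was -2.46 ± 0.24 in DMD (adjusted p = 3.76e-06) and -2.18 ± 0.19 in p16-null DMD (adjusted p = 1.17e-06). Acot2, a thioesterase of the mitochondrial matrix, fell by 1.46 ± 0.22 in DMD and by 1.02 ± 0.18 in p16-null DMD, with 8.59 to 11.1 CPM in DMD against 23.0 to 32.01 CPM in WT. Acot2 has a near-identical neighbour, Acot1, and reads that fit both can be split between them, so its values are uncertain.

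All 4 members of the carnitine shuttle fell in both dystrophic groups. Cpt1b, the muscle form of the outer membrane palmitoyltransferase that controls entry of long chains, stood at 102, 105 and 88.3 CPM in DMD, at 93.7 to 149 CPM (median 110.0) in p16-null DMD, and at 236, 248 and 219 CPM in WT. In CPM the 9 dystrophic libraries all lay below the 3 WT libraries. In TPM, p16-null DMD replicate 3, at 110.41, lay above the WT range of 95.58 to 95.93. The change was -1.24 ± 0.18 in DMD (adjusted p = 6.38e-05) and -0.99 ± 0.15 in p16-null DMD (adjusted p = 7.59e-05). Cpt2, the inner palmitoyltransferase that gives the acyl group back to coenzyme A, fell most in this step. It stood at 40.5, 29.6 and 26.3 CPM in DMD, at 33.7 to 51.7 CPM (median 40.6) in p16-null DMD, and at 114, 119.7 and 81.8 CPM in WT, a change of -1.70 ± 0.20 in DMD (adjusted p = 1.3e-05) and -1.34 ± 0.16 in p16-null DMD. Slc25a20, the carrier that exchanges acylcarnitine for carnitine, changed by -1.27 ± 0.19 in DMD and -1.18 ± 0.16 in p16-null DMD. Mlycd, which breaks down malonyl-CoA, the inhibitor of CPT1, changed by -1.41 ± 0.19 in DMD and -1.03 ± 0.16 in p16-null DMD. In TPM, Slc25a20 overlapped WT in DMD (34.54 to 59.38 against 56.45 to 71.42). Mlycd overlapped WT in p16-null DMD (26.15 to 40.15 TPM against 37.11 to 43.8).

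The acyl-CoA dehydrogenases, which open each round of the cycle and differ in the chain length they take, all fell, but not equally. Acadm, for medium chains, stood at 176, 104 and 88.7 CPM in DMD, at 119 to 226 CPM (median 144) in p16-null DMD, and at 522, 626 and 401 CPM in WT. It fell most of the 4, by 2.06 ± 0.29 in DMD (adjusted p = 4.61e-05) and 1.73 ± 0.23 in p16-null DMD (adjusted p = 2.54e-05). Acadl, for long and branched chains, stood at 127, 112 and 85.7 CPM in DMD, at 119.7 to 161 CPM (median 137) in p16-null DMD, and at 245, 279 and 221 CPM in WT. It fell least, by 1.19 ± 0.18 in DMD (adjusted p = 9.56e-05) and 0.83 ± 0.15 in p16-null DMD (adjusted p = 0.000344). Acadvl, the very-long-chain enzyme of the inner membrane, changed by -1.62 ± 0.20 in DMD and -1.26 ± 0.16 in p16-null DMD, and Acads, for short chains, by -1.45 ± 0.19 and -1.19 ± 0.16. In CPM, for none of the 4 did a library of either dystrophic group reach the WT libraries. In TPM, Acadl overlapped, at 161.6 to 237.44 in p16-null DMD against 190.27 to 214.78 in WT.

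The steps from hydratase to thiolase fell in both dystrophic groups, Echs1 most and Hadha least of the 5. Echs1, the short-chain enoyl-CoA hydratase, stood at 74.4, 55.9 and 58.0 CPM in DMD, at 65.8 to 92.3 CPM (median 70.6) in p16-null DMD, and at 238, 220.4 and 200.1 CPM in WT, a change of -1.80 ± 0.18 in DMD (adjusted p = 3.7e-06) and -1.53 ± 0.14 in p16-null DMD (adjusted p = 1.53e-06). Hadha, the subunit of the trifunctional protein that carries its hydratase and long-chain dehydrogenase, stood at 151, 106 and 101 CPM in DMD, at 127 to 199 CPM (median 139) in p16-null DMD, and at 319.8, 301 and 228 CPM in WT. Its change was -1.24 ± 0.21 in DMD (adjusted p = 0.000242) and -0.93 ± 0.18 in p16-null DMD (adjusted p = 0.000466). In TPM, Hadha overlapped WT (101.36 to 131.98) in DMD (67.67 to 110.97) and in p16-null DMD (87.42 to 125.17). Hadhb, the thiolase subunit whose promoter window is shared with Hadha, averaged 232 ± 69.7 CPM in DMD, 270.0 ± 38.4 CPM in p16-null DMD and 676 ± 62.0 CPM in WT, a change of -1.53 ± 0.22 in DMD and -1.32 ± 0.18 in p16-null DMD. The ratio of Hadhb to Hadha in TPM within a library was 2.67, 2.72 and 2.23 in DMD, 2.15 to 2.79 in p16-null DMD, and 2.703, 3.26 and 3.62 in WT, so that DMD and WT overlapped. Hadh, the dehydrogenase for medium and short chains, changed by -1.57 ± 0.23 and Acaa2, the mitochondrial thiolase for shorter chains, by -1.48 ± 0.20 in DMD. In p16-null DMD they changed by -1.29 ± 0.19 and -1.19 ± 0.16. In TPM, Hadh overlapped WT (82.47 to 115.15) in DMD (38.55 to 83.03) and in p16-null DMD (62.45 to 85.87).

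The auxiliary enzymes, which bring the double bonds of unsaturated acids into a form that the cycle can use, had the smallest median fall of the steps that fell. Eci2, an enoyl-CoA isomerase, stood at 32.9, 26.1 and 22.1 CPM in DMD, at 28.8 to 38.9 CPM (median 32.04) in p16-null DMD, and at 54.0, 60.8 and 41.5 CPM in WT. Its change was -0.94 ± 0.19 in DMD (adjusted p = 0.00102) and -0.67 ± 0.16 in p16-null DMD (adjusted p = 0.00315), and its sign in p16-null DMD turned to 0.10 in the test on TPM. Eci1, the other mitochondrial isomerase, changed by -0.91 ± 0.14 in DMD and -0.84 ± 0.12 in p16-null DMD. In TPM, Eci1 overlapped WT (89.57 to 117.24) in DMD (82.61 to 109.53) and in p16-null DMD (83.1 to 106.96). Decr1, the 2,4-dienoyl-CoA reductase, stood at 40.2, 33.4 and 35.99 CPM in DMD, at 28.9 to 49.9 CPM (median 39.3) in p16-null DMD, and at 56.9, 65.8 and 41.2 CPM in WT. The lowest WT library lay close to the highest DMD library, and inside the range of p16-null DMD. Decr1 fell by 0.57 ± 0.22 in DMD (adjusted p = 0.0429) and 0.49 ± 0.19 in p16-null DMD (adjusted p = 0.0418). It turned to 0.079 and 0.14 with library totals and was not called there. Without WT replicate 1 or 2, DMD replicate 2 or 3, or p16-null DMD replicate 4, its adjusted p in DMD was 0.0506 to 0.18. Without WT replicate 1 or 2, DMD replicate 3 or p16-null DMD replicate 1, 4 or 5, its adjusted p in p16-null DMD was 0.0526 to 0.223.

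Electron transfer flavoprotein and its oxidoreductase were lower in CPM in every dystrophic library than in any WT library of 9 months. In TPM, p16-null DMD overlapped WT for Etfb (125.62 to 161.25 against 147.01 to 194.11) and Etfa (111.26 to 169.37 against 163.56 to 210.13). Etfdh, which hands the electrons to ubiquinone, stood at 69.2, 47.4 and 43.0 CPM in DMD, at 50.4 to 73.6 CPM (median 57.7) in p16-null DMD, and at 139.8, 162 and 131 CPM in WT. Its change was -1.43 ± 0.20 in DMD (adjusted p = 4.85e-05) and -1.22 ± 0.17 in p16-null DMD (adjusted p = 2.81e-05). Etfb, the beta subunit, stood at 46.6, 59.97 and 43.9 CPM in DMD, at 44.0 to 58.4 CPM (median 50.8) in p16-null DMD, and at 105, 127 and 86.9 CPM in WT, a change of -1.08 ± 0.17 in DMD (adjusted p = 0.000156) and -1.06 ± 0.15 in p16-null DMD (adjusted p = 3.27e-05). Etfa, the alpha subunit, changed by -1.42 ± 0.19 in DMD and -1.26 ± 0.15 in p16-null DMD.

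The regulators were lower as well, with a wide spread. Ppara, the fatty acid receptor PPAR-alpha, was among the scarcest members, at 3.70, 1.87 and 1.97 CPM in DMD, 1.10 to 3.15 CPM (median 2.30) in p16-null DMD, and 8.09, 13.2 and 5.61 CPM in WT. It changed by -1.82 ± 0.44 in DMD (adjusted p = 0.0032) and -1.999 ± 0.36 in p16-null DMD (adjusted p = 0.000317). Ppargc1a, the coactivator PGC-1-alpha, fell by 1.22 ± 0.29 in DMD (adjusted p = 0.00318) and 1.55 ± 0.24 in p16-null DMD (adjusted p = 0.000108). Ucp3, an uncoupling protein of the inner membrane and a PPAR target, ranged from 33.1 to 48.2 CPM in DMD and from 13.002 to 95.9 CPM in p16-null DMD, against 105 to 176 CPM in WT. It fell by 1.76 ± 0.49 in DMD (adjusted p = 0.00784) and 1.10 ± 0.40 in p16-null DMD (adjusted p = 0.0306). Without WT replicate 2 or 3 or p16-null DMD replicate 2, the adjusted p of the change in p16-null DMD was 0.0582 to 0.145.

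Pdk4, the kinase that shuts pyruvate dehydrogenase in fasting, stood at 439.9, 259 and 166 CPM in DMD, at 145 to 452 CPM (median 372) in p16-null DMD, and at 376, 868 and 617 CPM in WT. The groups overlapped, since DMD replicate 1 lay above WT replicate 1. It fell by 1.09 ± 0.41 in DMD (adjusted p = 0.0385) and was not called in p16-null DMD (-0.81 ± 0.34, adjusted p = 0.0602). Without WT replicate 2 or 3 or DMD replicate 2 or 3, its adjusted p in DMD was 0.0732 to 0.172. Without WT replicate 1, DMD replicate 1 or 3 or p16-null DMD replicate 6, its adjusted p in p16-null DMD was 0.0301 to 0.049.

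**Figure D2:**
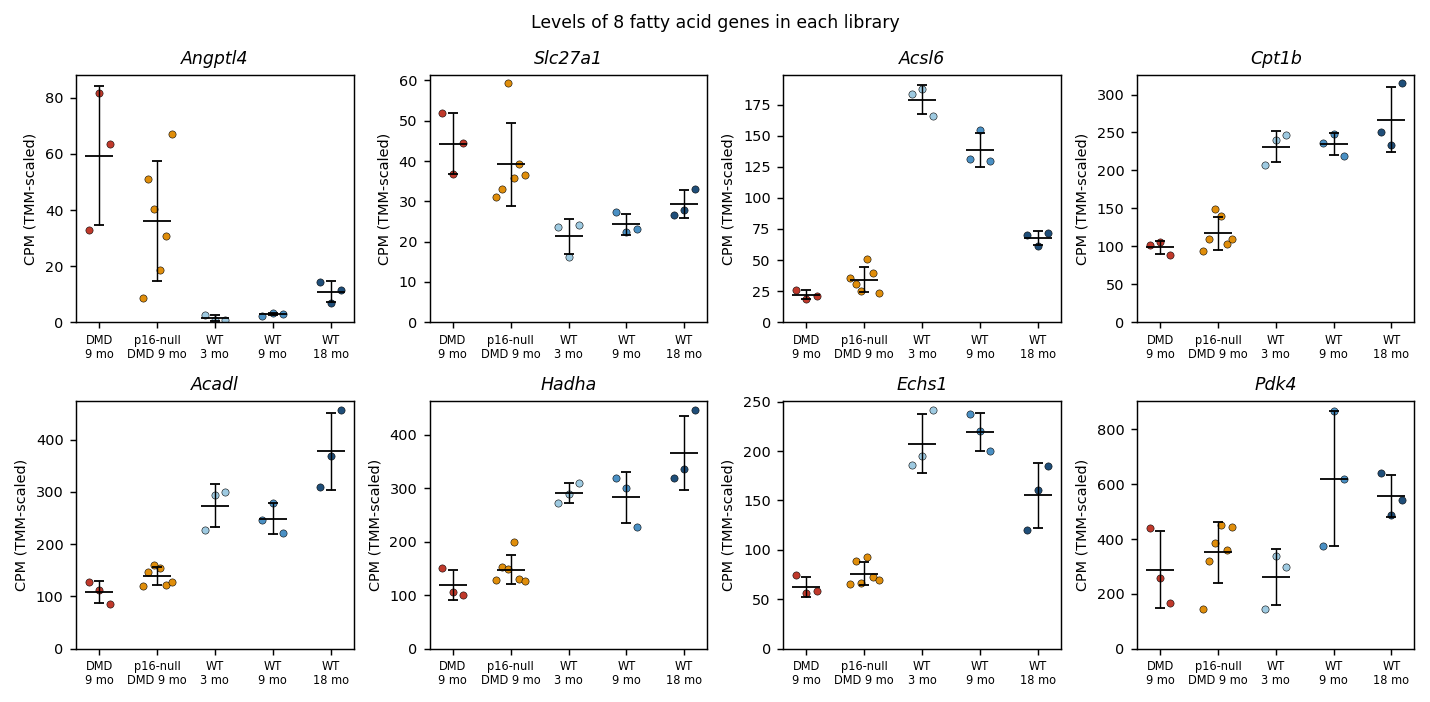
CPM (vertical axes, starting at 0) of 8 members in each of the 18 libraries, with the groups DMD, p16-null DMD and WT at 3, 9 and 18 months from left to right. Points are libraries, and bars give the mean and SD. Angptl4 and Slc27a1 are high in the dystrophic groups. Acsl6, Cpt1b, Acadl, Hadha and Echs1 are lower there than in WT at 9 months, and Acsl6 is also lower in WT at 18 months than in younger WT. Pdk4 overlaps between groups and has its lowest mean in WT at 3 months.

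No member was called between p16-null DMD and DMD muscle. At an adjusted p under 0.05, 0 of the 32 were called by edgeR, where 1 of the 14801 genes was called (0.00676%), and 0 by DESeq2 or by limma on TPM. At an unadjusted p under 0.05 there were 4 of the 32, beside 764 of all 14801 genes. The 4 were higher in p16-null DMD: Acsl6 (0.63 ± 0.21, adjusted p = 0.72), Acot2 (0.44 ± 0.19, adjusted p = 0.916), Mlycd (0.38 ± 0.17, adjusted p = 0.908) and Acadl (0.36 ± 0.16, adjusted p = 0.916). The median of the members was 0.26, against 0.02 over all genes, and 26 of the 32 values were above 0, beside 7880 of all 14801 genes. The 6 below 0 were Lpl, Angptl4, Slc27a1 and Pnpla2 of the uptake step and the regulators Ppara and Ppargc1a. For the members the log2 fold change ran from -0.70 (Angptl4) to 0.65 (Ucp3). A list of 30 TCA cycle and respiratory chain genes, none of them called, had a median of 0.30.

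The 6 p16-null DMD libraries differed among themselves in the uptake genes and in Acsl6. Angptl4 stood at 8.80, 50.9, 40.5, 18.6, 30.8 and 67.2 CPM in replicates 1 to 6, and Pnpla2 at 87.1, 184, 319, 101, 149 and 197 CPM. Both genes were lowest in replicates 1, 4 and 5. The summed fat cell markers, at 1538, 3876, 5699, 1046, 2136 and 3890 TPM, were lowest in the same libraries. Acsl6 stood at 35.3, 31.0, 25.1, 51.1, 39.3 and 23.6 CPM, highest in replicates 1, 4 and 5. Macrophage markers summed to 6976, 3183, 2299, 3276, 4476 and 2235 TPM, and were highest in replicates 1 and 5. The part of these cells in the values was not tested.

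**Figure D3:**
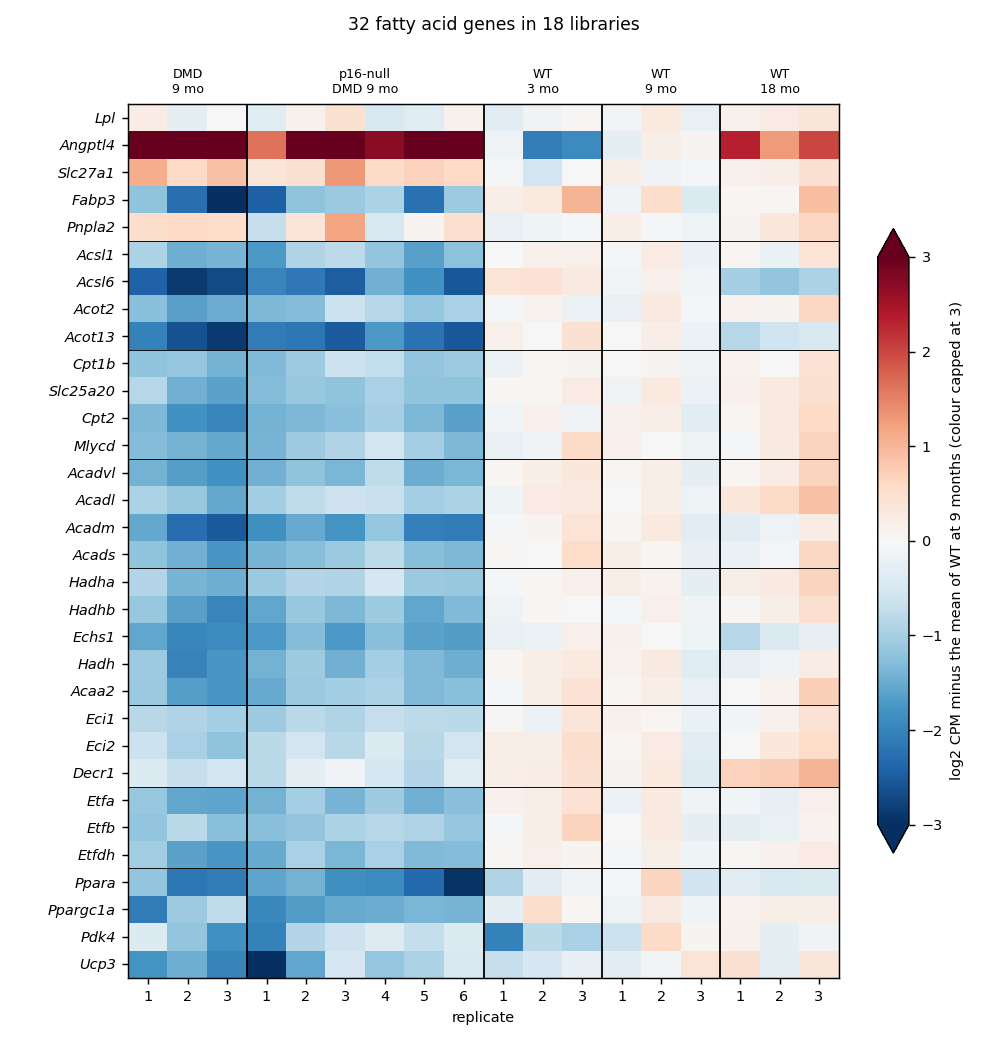
Log2 CPM of the 32 members (rows, grouped by step) in the 18 libraries (columns, with the replicate number below and the group above), minus the mean log2 CPM of WT at 9 months, with colours capped at 3. Blue rows in the DMD and p16-null DMD columns are Fabp3 and those from Acsl1 to Ucp3, palest for Decr1, and red rows are Angptl4 and Slc27a1. In WT at 18 months Acsl6 and Acot13 are blue while Angptl4 and Decr1 are red.

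In WT muscle 9 members were called between 3 and 18 months, led by Angptl4, which rose, and Acsl6, which fell. Against 3 months, 7 members rose at 18 months (9.31% of the 13487 genes tested rose) and 2 fell (10.1% of all fell), where 19.4% of all changed in either direction. The median log2 fold change was 0.13, against 0.00 over all genes, and was 0.012 to 0.25 with each library left out. With library totals it was 0.36, and with limma on log2(TPM + 1) 0.47. Relative to the median of all genes, which scaling moves along with the members, it was 0.13 and 0.18 in these fits. In CPM, all 3 libraries of 18 months lay above those of 3 months for 8 members (17.7% of all genes) and below them for 3 (18.4%). The calls depended on the scaling and on the fit. With library totals 14 rose and 2 fell, while the median of all genes moved to 0.24 and their calls to 2609 higher and 652 lower, against 1256 higher and 1366 lower with TMM. In a fit of all 18 libraries Angptl4, Acsl6 and Acot13 were the members still called. Without replicate 1 or 2 of 3 months or replicate 3 of 18 months 3 members rose, and without replicate 2 of 18 months 4 rose.

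The largest rise with age was that of Angptl4. It stood at 2.57, 0.681 and 0.757 CPM at 3 months, at 2.35, 3.24 and 3.03 CPM at 9 months, and at 14.3, 6.89 and 11.3 CPM at 18 months. All libraries of 18 months lay above all younger ones, and still below the 32.8 CPM of the lowest DMD library. The change of 18 over 3 months was 3.00 ± 0.45 (adjusted p = 0.000328), and that of 18 over 9 months was 1.95 ± 0.42 (adjusted p = 0.0047). Pnpla2 (0.50 ± 0.14, adjusted p = 0.0221) and Lpl (0.39 ± 0.13, adjusted p = 0.0455) rose too between 3 and 18 months. Pnpla2 lost its call without replicate 1 or 2 of 3 months or 2 or 3 of 18 months (adjusted p 0.0568 to 0.103), and Lpl lost it without any of these or replicate 1 of 18 months (0.0627 to 0.177). Fat cell markers summed to 983 to 1121 TPM at 18 months, against 591 to 848 TPM at 3 months, and 2 of the 11 tested rose (9.31% of all genes rose). Adipoq (0.25 ± 0.30, adjusted p = 0.612) was not among them. Slc27a1 and Fabp3 were not called.

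Acsl6 had lower CPM at each later age, and was called against 18 months only. It stood at 184, 188 and 166 CPM at 3 months, at 132, 154 and 129.9 CPM at 9 months and at 69.8, 61.1 and 71.5 CPM at 18 months, with no overlap between any 2 ages. In TPM, 3 and 9 months overlapped, at 62.98 to 87.32 and 59.49 to 66.4. The change was -1.40 ± 0.12 from 3 to 18 months (adjusted p = 3.56e-06) and -1.01 ± 0.12 from 9 to 18 months (adjusted p = 4.93e-05), while that from 3 to 9 months, -0.38 ± 0.12, was not called (adjusted p = 0.119). Acsl1 stood at 383, 319.9 and 489 CPM at 18 months, against 367, 408 and 407 CPM at 3 months, a change of 0.02 ± 0.15 (adjusted p = 0.947). Acot13 was the other member that fell. It stood at 75.8, 68.2 and 93.8 CPM at 3 months, 67.5, 79.0 and 60.1 CPM at 9 months and 37.7, 45.1 and 50.2 CPM at 18 months, so that the oldest libraries lay below all others. Its change was -0.83 ± 0.15 from 3 to 18 months (adjusted p = 0.00134) and -0.61 ± 0.15 from 9 to 18 months (adjusted p = 0.0126). The call of Acot13 from 9 to 18 months was lost without replicate 2 of 9 months or replicate 1 of 18 months (adjusted p 0.0627 and 0.0767).

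Among the shuttle, the cycle and the auxiliary enzymes, Decr1 and Acadl were the members called between 3 and 18 months. Decr1 was at 61.2, 62.1 and 73.0 CPM at 3 months, 56.9, 65.8 and 41.2 CPM at 9 months and 86.9, 89.4 and 109 CPM at 18 months. It rose by 0.55 ± 0.13 from 3 to 18 months (adjusted p = 0.00964) and 0.83 ± 0.16 from 9 to 18 months (adjusted p = 0.00207). Acadl was at 227, 294 and 301 CPM at 3 months, 245, 279 and 221 CPM at 9 months and 309, 369.5 and 456 CPM at 18 months. It rose by 0.47 ± 0.15 from 3 to 18 months (adjusted p = 0.0438) and 0.63 ± 0.15 from 9 to 18 months (adjusted p = 0.0103). The call from 3 to 18 months was lost without replicate 1 or 2 of 3 months or 2 or 3 of 18 months (adjusted p 0.0723 to 0.183), and that from 9 to 18 months without replicate 3 of 9 months or replicate 3 of 18 months (0.0569 and 0.0652).

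None of the 4 shuttle members was called between 3 and 18 months. Cpt1b stood at 208, 240.5 and 246 CPM at 3 months, 236, 248 and 219 CPM at 9 months and 251, 234 and 315 CPM at 18 months, a change of 0.21 ± 0.14 (adjusted p = 0.314). Hadha stood at 273, 290.1 and 310.3 CPM at 3 months, 319.8, 301 and 228 CPM at 9 months and 318, 336 and 446 CPM at 18 months. All 3 of its oldest libraries lay above the 3 youngest, yet it was not called (0.34 ± 0.14, adjusted p = 0.106). Echs1 went the other way, at 120.0, 161 and 185 CPM at 18 months against 186, 195 and 241 CPM at 3 months. Its change was -0.41 ± 0.16 from 3 to 18 months (adjusted p = 0.0859) and -0.47 ± 0.15 from 9 to 18 months (adjusted p = 0.0458). The call from 9 to 18 months was lost without any 1 library of 9 months, replicate 2 of 3 months or replicate 1 or 2 of 18 months (adjusted p 0.0578 to 0.208). Etfa, Etfb and Etfdh were not called, at -0.30, -0.43 and 0.06.

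Pdk4 and Ucp3 rose among the regulators. Pdk4 stood at 144, 338 and 298 CPM at 3 months, 376, 868 and 617 CPM at 9 months and 641, 489 and 542 CPM at 18 months. It was already higher at 9 than at 3 months, by 1.25 ± 0.28 (adjusted p = 0.0258), and was the only member called in that comparison by this test (1.29% of 13773 genes rose). That call was lost without replicate 2 or 3 of 9 months or replicate 1 of 3 months (adjusted p 0.0707 to 0.0978). Age and set of libraries cannot be told apart between 3 and 9 months. From 3 to 18 months Pdk4 rose by 1.11 ± 0.23 (adjusted p = 0.00356). Ucp3 stood at 82.0, 93.5 and 112 CPM at 3 months, 105, 125 and 176 CPM at 9 months and 182, 108 and 171 CPM at 18 months. It rose by 0.69 ± 0.18 from 3 to 18 months (adjusted p = 0.0136), with replicate 2 of 18 months inside the range of 3 months. Without replicate 1 or 2 of 3 months or 1 or 3 of 18 months its adjusted p was 0.0505 to 0.0779. Ppara (0.00 ± 0.27) and Ppargc1a (0.05 ± 0.21) were not called.

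**Figure D4:**
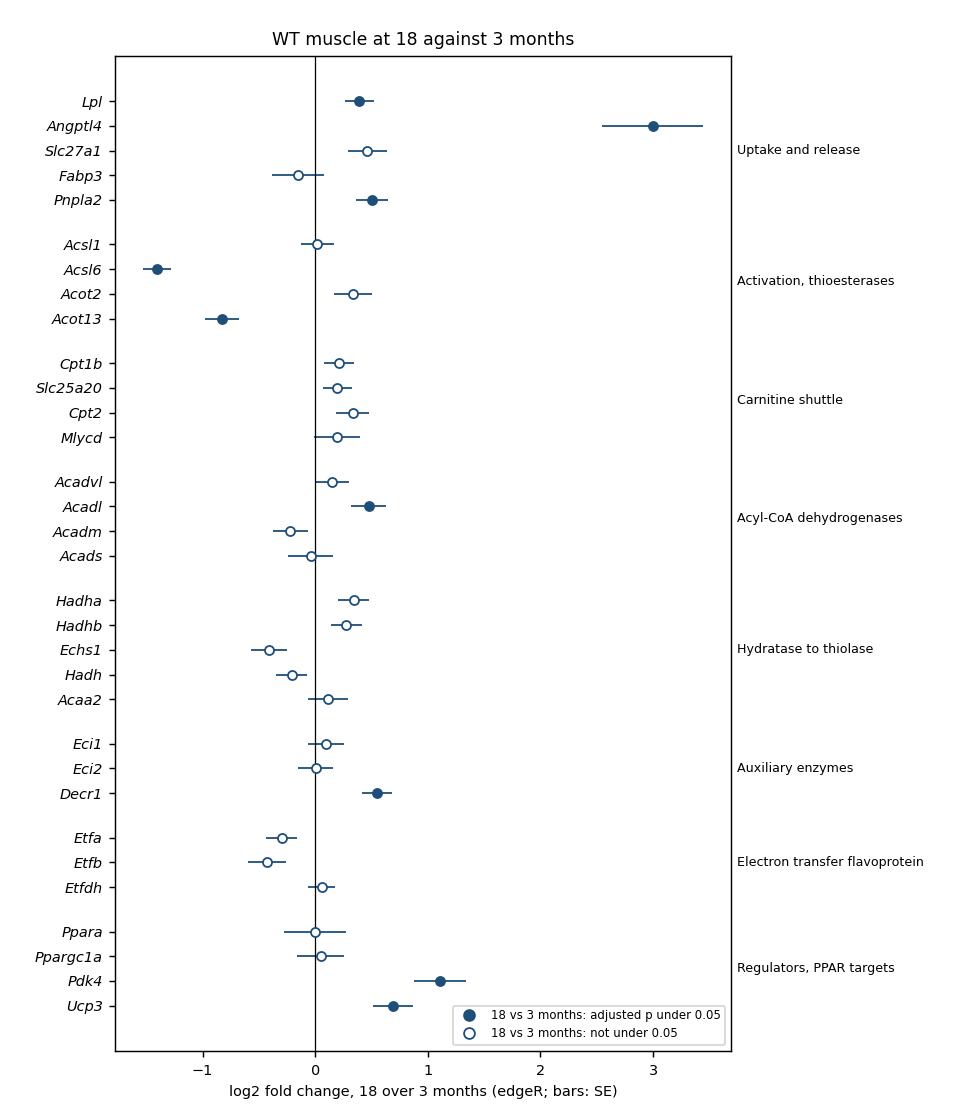
Log2 fold change of the 32 members in WT muscle of 18 over 3 months (horizontal axis), ordered by step, with bars for the SE from edgeR and filled circles for an adjusted p under 0.05. Angptl4 at 3.00 lies farthest to the right, Acsl6 at -1.40 farthest to the left, and most members lie within 0.5 of 0.

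From 9 to 18 months 3 members rose (6.72% of 13773 genes rose), Angptl4, Acadl and Decr1, and 3 fell (7.37% of all fell), Acsl6, Acot13 and Echs1. The median was 0.23, against 0.03 over all genes. With library totals 20 rose and 1 fell, and the calls over all genes moved to 3318 higher and 393 lower, against 925 higher and 1015 lower with TMM. Between 3 and 9 months no member fell (1.13% of all genes fell, and 2.42% changed in either direction), and the median was -0.10. In CPM, all libraries of 9 months lay above those of 3 months for Pdk4 alone (10.4% of all genes) and below them for Acsl6 alone (9.22%). In both comparisons with 9 months, age and set of libraries cannot be told apart.

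Ratios within a library do not depend on how libraries are scaled, and are given here as a description. The geometric mean TPM of the 19 members from shuttle to electron transfer flavoprotein, divided by that of 30 TCA cycle and respiratory chain genes, was 0.349 to 0.369 in DMD muscle and 0.302 to 0.438 in p16-null DMD. It was 0.274 to 0.294, 0.273 to 0.300 and 0.390 to 0.448 in WT of 3, 9 and 18 months. All libraries of WT muscle of 18 months and of dystrophic muscle lay above those of younger WT muscle. The 30 genes themselves were lower in DMD against WT for 29 of 30 (median -1.78, 21.8% of all genes fell). At 18 against 3 months 18 of 30 were lower (median -0.52, 10.1% of all genes fell). Cs, citrate synthase, was at 150.3 to 213 TPM in DMD, 183 to 240.0 TPM in p16-null DMD and 265 to 306 TPM in WT of 9 months. Divided by Cs alone, the ratio overlapped between all groups, at 0.379 to 0.409 in DMD, 0.354 to 0.457 in p16-null DMD and 0.366 to 0.403 in WT of 9 months.

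Pairs of related enzymes shifted as well. Acadl to Acadm was 0.9501, 1.41 and 1.28 in DMD, 0.890 to 1.41 in p16-null DMD, and 0.571 to 0.688, 0.579 to 0.722 and 0.977 to 1.02 in WT of 3, 9 and 18 months. Acsl6 to Acsl1 was 0.203, 0.224 and 0.237 in DMD, and 0.626 to 0.768, 0.548 to 0.607 and 0.222 to 0.291 in WT of 3, 9 and 18 months. In p16-null DMD it was 0.459, 0.241, 0.176, 0.485, 0.506 and 0.238 in replicates 1 to 6, so that replicates 1, 4 and 5 lay between DMD and WT of 9 months and replicates 2, 3 and 6 near DMD. For both pairs the WT libraries of 18 months lay nearer to DMD than the younger WT libraries did.

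**Figure D5:**
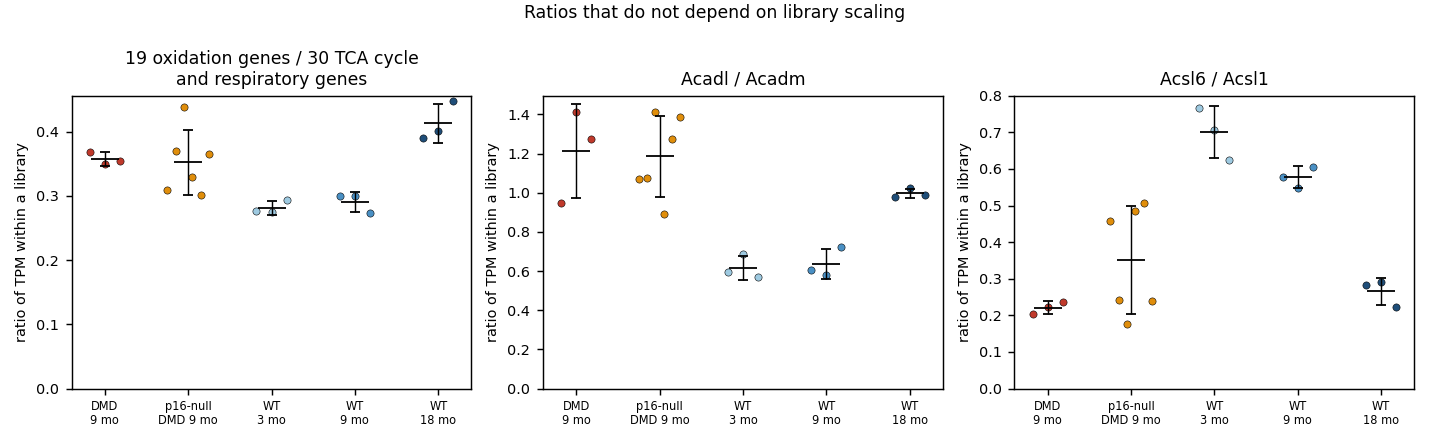
Ratios of TPM within each library (vertical axes, starting at 0) for DMD, p16-null DMD and WT at 3, 9 and 18 months, with points for libraries and bars for the mean and SD. Left, the geometric mean of 19 oxidation members over that of 30 TCA cycle and respiratory genes, which is 0.390 or more in WT at 18 months and 0.273 to 0.300 in younger WT; middle, Acadl over Acadm; right, Acsl6 over Acsl1, where p16-null DMD libraries run from 0.176 to 0.506.

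Per length, Fabp3 had the highest mean of the members in every group, at 244 ± 158 TPM in DMD, 375 ± 141 TPM in p16-null DMD, and 810.5 ± 181, 589.6 ± 172 and 922 ± 307 TPM in WT of 3, 9 and 18 months. In DMD that mean rested on replicate 1, since Fabp3 stood at 425.03, 177.4 and 130.5 TPM there, and its median of 177.4 TPM was below those of Pnpla2 (189.8 TPM), Hadhb (184.4 TPM) and Lpl (181.8 TPM). The order of these 4 in DMD was within their spread. Hadhb had the next mean in each group, with 217 ± 68.7 TPM in DMD and 370.0 ± 15.1 TPM in WT of 9 months, where Acadm followed at 321 ± 54.0 TPM. In DMD the next means were those of Pnpla2 (187 ± 12.7 TPM) and Lpl (172 ± 39.9 TPM), which stood 18th and 16th of the 32 in WT of 9 months. Angptl4 stood 17th in DMD (65.8 ± 24.3 TPM) and last in WT of 9 months (1.90 ± 0.314 TPM). The members summed to 2224 to 3350 TPM in DMD, 2320 to 3676 TPM in p16-null DMD, and 3880 to 4273, 3537 to 4353 and 4841 to 6334 TPM in WT of 3, 9 and 18 months.

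Other genes of fatty acid metabolism, from lists chosen by function, were split in DMD muscle, where 26.4% of all genes rose and 21.8% fell. Of 16 further genes of mitochondrial acyl-CoA and ketone oxidation, none rose and 14 fell (median -1.35), with Ivd, isovaleryl-CoA dehydrogenase (-1.94 ± 0.15, adjusted p = 1.46e-06), and Mmut, methylmalonyl-CoA mutase (-2.04 ± 0.17, adjusted p = 1.48e-06), most clearly. Of 16 peroxisomal genes 1 rose and 6 fell (median -0.40), among them Phyh, phytanoyl-CoA hydroxylase (-2.15 ± 0.22), and Ehhadh, the peroxisomal bifunctional enzyme (-2.72 ± 0.31). Of 11 further transport and carnitine genes 3 rose and 5 fell, led by Crat, carnitine acetyltransferase (-1.83 ± 0.20, adjusted p = 6.33e-06), and Vldlr, a lipoprotein receptor (-1.09 ± 0.15).

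Of 12 lipid droplet genes in DMD muscle 4 rose and 6 fell, where 26.4% of all genes rose and 21.8% fell. Among them Plin2, a droplet coat protein of many cells, was higher (1.42 ± 0.18, adjusted p = 2.13e-05) and Fitm1, a muscle droplet protein, lower (-1.71 ± 0.24, adjusted p = 4.31e-05). Cidec and Lipe of this list are also on the fat cell list. Among 10 further synthetases and thioesterases 1 rose, Acsl5 (1.08 ± 0.18, adjusted p = 0.000156), and 3 fell, with Acss2, a cytosolic acetyl-CoA synthetase, lowest in p (-1.12 ± 0.19). Of 13 genes of malonyl-CoA and fatty acid synthesis 7 rose and 4 fell (median 0.66), led by Fasn, fatty acid synthase (1.4997 ± 0.18, adjusted p = 1.24e-05), and Elovl1, a chain elongase (1.40 ± 0.17, adjusted p = 1.87e-05). Of 27 genes of transcriptional and kinase control 3 rose and 15 fell (median -0.75), with Rxrg, a partner receptor of the PPARs (-2.35 ± 0.25, adjusted p = 6.11e-06), and Prkaa2, the muscle catalytic subunit of AMP kinase (-2.55 ± 0.29, adjusted p = 9.56e-06).

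In p16-null DMD the same lists held 0 higher and 15 lower of 16 for mitochondrial oxidation, 2 and 7 of 16 for peroxisomal genes, 3 and 5 of 11 for transport, 3 and 6 of 12 for lipid droplets, 1 and 3 of 10 for synthetases, 7 and 4 of 13 for synthesis, and 4 and 17 of 27 for control. Of all genes, 27.5% rose and 22.7% fell in that comparison. Between 3 and 18 months in WT muscle 9.31% of all genes rose and 10.1% fell. The largest share of calls there was among the synthetases and thioesterases, with 4 of 10 higher and none lower. Acsl4, a synthetase for arachidonic acid, rose by 1.34 ± 0.13 (adjusted p = 6.21e-06), and Acsf2 by 1.61 ± 0.20 (adjusted p = 7.24e-05). Plin2 rose by 1.68 ± 0.14 (adjusted p = 2.37e-06) and G0s2, an inhibitor of adipose triglyceride lipase, fell by 1.63 ± 0.23 (adjusted p = 0.00022). Cpt1a, the liver form of CPT1, rose by 0.84 ± 0.18 (adjusted p = 0.00372), while Vldlr fell by 0.98 ± 0.12 (adjusted p = 7.24e-05). Acacb, the acetyl-CoA carboxylase that makes malonyl-CoA at the mitochondrion, rose by 0.89 ± 0.13 (adjusted p = 0.000329), and Srebf1, a regulator of lipid synthesis, fell by 0.66 ± 0.13 (adjusted p = 0.00264). Rxrg fell by 1.29 ± 0.14 (adjusted p = 2.63e-05) and Prkaa2 by 0.97 ± 0.12 (adjusted p = 6.15e-05).

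Fast fibre markers were lower in DMD muscle, as most members were, while slow fibre markers were split. Of all genes, 26.4% rose and 21.8% fell in DMD, and 27.5% and 22.7% in p16-null DMD. From 3 to 18 months 9.31% of all genes rose and 10.1% fell. All 9 tested fast fibre markers fell in DMD and p16-null DMD, and their summed level was 41282 to 58804 TPM in DMD, 35959 to 57808 TPM in p16-null DMD and 69157 to 79547 TPM in WT of 9 months. Of 12 slow fibre markers, 2 rose and 2 fell in DMD (median -0.07), and 3 rose and 2 fell in p16-null DMD (median 0.65). In WT muscle 8 of 9 fast fibre markers fell and 4 of 12 slow fibre markers rose from 3 to 18 months, and 9 of 12 macrophage markers rose. Of 12 markers of capillary endothelium, the cells on whose surface lipoprotein lipase acts, none rose and 3 fell in DMD. In p16-null DMD 2 rose and 3 fell. Their summed level was 806 to 969 TPM in DMD, 795 to 1022 TPM in p16-null DMD and 797 to 829.7 TPM in WT of 9 months. Of 6 heart muscle markers 2 were tested, and both rose in DMD, Tnnt2, a troponin also made by embryonic skeletal muscle, by 4.56 ± 0.58 (adjusted p = 2.27e-05) and Myh6 by 2.57 ± 0.95 (adjusted p = 0.0362), while 1 of the 2 rose in p16-null DMD. The 6 summed to 29.6 to 66.8 TPM in DMD and 19.6 to 66.4 TPM in p16-null DMD, against 0.81 to 1.79 TPM in WT of 9 months. Nppa and Tnni3 of that list were listed at 0 to 0.61 TPM in all libraries. The part of fibre type and cell makeup in the members' values was not tested.

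Across the 18 libraries, the genes whose log2(TPM + 1) was most like that of Cpt1b were Acot2 (Pearson r = 0.942), Acadl (0.935), Iba57, an iron-sulphur cluster assembly factor (0.931), Acacb (0.922) and Cand2 (0.917), among 6725 genes with a mean of at least 10 TPM. These libraries share depth, group and makeup, and the values are a description. Among the members, Cpt2 (0.915), Hadha (0.909) and Acaa2 (0.905) followed, while Acsl6 (0.433), Pdk4 (0.341), Lpl (-0.03), Pnpla2 (-0.13), Slc27a1 (-0.38) and Angptl4 (-0.40) had the lowest r. These values include the differences between groups. For deviations from the group means, r was -0.02 for Acsl6, 0.47 for Pdk4 and 0.55 for Lpl. It was 0.62 for Pnpla2, 0.58 for Slc27a1 and 0.28 for Angptl4.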

How the data were processed

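RNA-seq was measured in 18 libraries. The tools named in the submitters' processing notes are RSEM 1.3.3, STAR 2.7.10b, FastQC and Trimmomatic, with mRatBN7.2 as the build. The annotation release and the strand setting were not stated. The authors deposited expected counts per gene (RSEM's estimated counts, of which 4.50% of values were not whole) and TPM values, which are scaled by length and library.

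Counts were rounded, and entries with too few counts for a fit were removed with filterByExpr. The tests used edgeR 4.0.16 (TMM, quasi-likelihood, Benjamini-Hochberg adjustment over all tested genes) in R 4.3.3, with 3 fits: the 3 groups of 9 months, WT of 18 and 3 months, and WT of all ages. The biological coefficient of variation was 0.260, 0.176 and 0.184 in these fits. The SE is the size of the log2 fold change divided by the square root of F. The 7162 entries that have a gene ID but no symbol, with 3.64 to 17.6% of a library's counts, stayed in library sizes and tests. Alternatives were DESeq2 1.42.0, limma 3.58.1 on log2(TPM + 1) and log2(TPM + 0.1), other scalings and filters, a replicate block, other sets of libraries and each library left out. No 2 replicates were alike within counting noise (chi-square per degree of freedom of at least 12.5). The test was tried on simulated counts in which few genes changed, so that trial cannot check the scaling of these libraries.

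The members and lists were chosen with earlier results of these data known. Members with the largest or smallest change of a step, those called between 3 and 18 months, Cpt1b and Hadha are given by library; of the other lists, up to 2 genes with the smallest p are named for a comparison. Promoters came from RefSeq (GRCr8).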

Additional observations from a re-analysis of the deposited data

Results flagged for a closer look

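In 3 of the 32 members, 1 of the 6 p16-null DMD libraries stood apart from the other 5 by more than Dixon's 95% critical value, a gap that chance gives in about 1 of 20 groups. Slc27a1 stood at 59.3 CPM in replicate 3, where the nearest library was at 39.2 CPM and the lowest at 31.1 CPM. Acadvl stood at 124 CPM in replicate 4, where the nearest was at 91.5 CPM and the lowest at 75.9 CPM. Hadha stood at 198.7 CPM in replicate 4, where the nearest was at 152 CPM and the lowest at 127 CPM. In none of the 3 did the high library change a call against WT when it was left out.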

How the results depend on the processing

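With library totals in place of TMM, 14 members rose from 3 to 18 months, and from 9 to 18 months 20 rose and 1 fell. Decr1 then turned to 0.079 in DMD and 0.14 in p16-null DMD against WT. With limma on log2(TPM + 1) or log2(TPM + 0.1), 4 members rose and 20 or 19 fell in DMD, and in p16-null DMD 4 rose and 15 fell. Calls over all genes moved too, to 8058 higher and 1044 lower in DMD and 8818 and 983 in p16-null DMD with a pseudocount of 1, against 3914 and 3228 and 4073 and 3359 with TMM. The signs of Lpl (0.74 and 0.75) and Decr1 (0.21 with either) turned in DMD, and those of Lpl (0.68 with either), Decr1 (0.27 and 0.28) and Eci2 (0.10 with either) in p16-null DMD. Between 3 and 18 months 18 rose with either, between 9 and 18 months 16 and 15 rose and 1 fell, and between 3 and 9 months 0 rose. With a pseudocount of 1, all genes gave 3031 higher and 429 lower at 18 against 3 months and 2219 and 323 at 18 against 9 months, where TMM gave 1256 and 1366 and 925 and 1015. Without a filter on low counts, 4 fell between 3 and 18 months, and between 3 and 9 months 2 rose and 1 fell. In 1 fit of all 18 libraries, 1 rose between 3 and 18 months, 0 rose between 3 and 9 months and 1 fell between 9 and 18 months. With only the groups compared in the fit, 0 rose between 3 and 9 months. The cause of these differences was not tested.

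With each library left out in turn, 2 members rose and 26 to 28 fell in DMD, and 2 rose and 25 to 28 fell in p16-null DMD. Between p16-null DMD and DMD the count stayed at 0. Between 3 and 18 months 3 to 7 rose and 2 to 3 fell, between 3 and 9 months 0 to 1 rose (0 without replicate 2 or 3 of 9 months or replicate 1 of 3 months) and 0 fell, and between 9 and 18 months 2 to 4 rose and 1 to 3 fell (1 without replicate 2 of 9 months or replicate 1 of 18 months). DESeq2 gave Pdk4 an adjusted p of 0.0256 in p16-null DMD against WT. Same-numbered libraries of replicates 1 to 3 deviated together with correlations of -0.22 to 0.21. Libraries of different numbers were not compared, so these values do not decide whether the numbers pair the samples. With a replicate block, 4 members fell between 3 and 18 months. In that fit Decr1 had an adjusted p of 0.0797 in DMD and 0.229 in p16-null DMD and Pdk4 of 0.11 in DMD, and Slc27a1 (0.0445), Echs1 (0.0167) and Etfb (0.0186) were called between 3 and 18 months. The depth of 9.61 M to 21.99 M counts limits the scarce members most, such as Ppara and Angptl4 in WT.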
